A study of Mus musculus with 8 samples.

Results

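In mouse embryonic fibroblasts (MEFs) at day 5 of reprogramming, 6165 genomic regions carried NANOG in both arms of the experiment, BRG1 only in the arm with the engineered factor, and H3K27ac in neither arm. They were chosen from the deposited peak lists: overlapping or touching FLAG and BRG1 peaks from either arm were merged into regions, and a region was kept if it held a FLAG peak of each arm and a BRG1 peak of the engineered arm, held no BRG1 peak of the other arm, and overlapped no H3K27ac peak of either arm. Of 93352 merged regions, 44464 held a FLAG peak of both arms and are called shared NANOG regions here. BRG1 was called in the engineered arm only at 14212 shared regions, or 32% of them, and 27.8% of shared regions overlapped no H3K27ac peak. The 6165 regions meet both conditions. The presence or absence of FLAG, BRG1 and H3K27ac peaks is therefore what defined them and is described without a test.

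The series used CUT&Tag, a method that tethers a transposase to a protein or histone mark through an antibody and cuts the DNA beside it, and compared MEFs transduced with Nanog and Oct4 (NanogWT) with MEFs transduced with NanogN70 and Oct4 (NanogBiD). By the study's description, NanogBiD is NANOG with the BRG1-interacting domain of SS18 joined to its N-terminus. Both arms carried the Oct4 vector and the Oct4-GFP reporter of OG2 MEFs, received pMXs retroviral vectors, and were cultured in iCD3 medium. FLAG (tagged NANOG), BRG1, H3K27ac and H3K4me1 were profiled in each arm, and each of the 8 peak lists was made from merged replicates, so there is 1 list per target and arm and no replicate error. The cells are a transduced population rather than a clone. The MEF label was checked against markers: H3K27ac peaks lay at the promoters of 9 of 10 fibroblast markers in both arms, with Prrx1 missing, and at none of 6 pluripotency markers. Of 4 markers each, peaks lay at 0 and 1 of the blood markers, 1 and 3 of the endothelial markers, 1 and 2 of the neural markers and 0 and 1 of the epithelial markers in the NanogWT and NanogBiD arms. The lists held 58940 and 74782 FLAG peaks, 30859 and 53748 BRG1 peaks, 35452 and 42598 H3K27ac peaks, and 72242 and 57156 H3K4me1 peaks in the same order of arms. Read depth behind the lists is unknown, and a missing peak means only that none passed the caller's threshold. The part of list size in the differences between arms was not tested, although values with lists of equal size are described below.

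BRG1 (SMARCA4) is an ATPase that drives the BAF complex, a chromatin remodeller that slides and evicts nucleosomes and opens chromatin at enhancers, and SS18 is a BAF subunit. NANOG is a homeodomain factor of the pluripotent state, and OCT4 is a POU factor that binds an octamer, often next to a SOX site. H3K4me1 marks enhancers in both poised and active states, whereas H3K27ac is laid down by p300 and CBP at active enhancers and promoters. The remodeller and the acetylation are often found at the same enhancers, and here they were recorded apart.

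The sequences of 6 summits are shown because they lie at the summits of high-ranking regions and let the DNA at these sites be read directly. The first 5 are from the 6 regions that ranked highest by the lower of their NanogBiD FLAG and BRG1 scores, the remaining one of which lies in an exon and is not printed. The last is the region with H3K4me1 in NanogBiD only that had the strongest NanogBiD H3K4me1 score. Each run is the plus strand of mm10, centred on the NanogBiD FLAG summit with 50 bases either side, with matches to a SOX word or to the homeodomain words TAATGG and TAATTA on either strand in capitals.
Fign side, chr2:63963479-63963579: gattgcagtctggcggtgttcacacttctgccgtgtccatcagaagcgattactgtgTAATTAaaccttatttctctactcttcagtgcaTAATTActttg
Spock3 intron, chr8:63169408-63169508: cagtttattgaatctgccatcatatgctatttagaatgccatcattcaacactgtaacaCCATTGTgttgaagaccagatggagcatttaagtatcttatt
Gm11114 side, chr9:85157670-85157770: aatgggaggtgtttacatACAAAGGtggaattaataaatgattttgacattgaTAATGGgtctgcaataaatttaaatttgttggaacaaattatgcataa
D3Ertd751e side, chr3:42023684-42023784: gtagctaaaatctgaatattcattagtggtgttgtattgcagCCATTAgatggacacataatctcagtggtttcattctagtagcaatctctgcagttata
Nnmt side, chr9:48562680-48562780: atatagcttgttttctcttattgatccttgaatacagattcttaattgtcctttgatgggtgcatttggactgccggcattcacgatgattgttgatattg
Tenm2 intron, chr11:36914142-36914242: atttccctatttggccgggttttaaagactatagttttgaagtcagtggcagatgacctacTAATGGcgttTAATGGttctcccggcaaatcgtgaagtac

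The region on the Fign side lay at chr2:63962465-63964905, an intergenic site 134 kb from the start of Fign, which encodes a microtubule-severing ATPase. Its FLAG summit height, the number of tags piled up at the summit, was 11 in NanogWT and 39 in NanogBiD, its BRG1 height was 24 in NanogBiD, and H3K4me1 was called in NanogBiD only, at height 11. It holds 2 TAATTA words. The region in an intron of Spock3, a testican proteoglycan gene, at chr8:63169022-63170495, had FLAG heights of 17 and 36, a BRG1 height of 31 and no H3K4me1 peak. The region at chr9:85156993-85158610, 155 kb from the start of Gm11114, had FLAG heights of 10 and 36 and a BRG1 height of 22, with H3K4me1 in both arms at heights 10 and 11. FLAG was higher in NanogBiD at all 6 of the highest-ranked regions, a direction that ranking by the NanogBiD scores favours, here and wherever regions are named by that ranking. H3K4me1 differed among the 6: 2 had it in both arms, 2 in NanogBiD only and 2 in neither. At chr3:42023103-42024474 the FLAG heights were 18 and 33 and the BRG1 height was 20. At chr9:48562039-48563416, 34.6 kb from the start of Nnmt, a nicotinamide methyltransferase gene, they were 12, 36 and 26, and no SOX, TAATGG or TAATTA word occurs in the printed window. At the exonic region, chr15:24849047-24850834 in the noncoding gene Gm35769, they were 15, 32 and 20. The Tenm2 region, in an intron of this teneurin adhesion gene at chr11:36913722-36914891, had FLAG heights of 9 and 40, a BRG1 height of 18 and 2 TAATGG words within a few bases of each other.

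NANOG occupancy at the 6165 regions was modest and was mostly higher with NanogBiD. The FLAG summit height ranged from 6 to 58 in NanogWT with a median of 13 (quartiles 10 and 16), and from 7 to 56 in NanogBiD with a median of 17 (quartiles 13 and 21). The ranges overlap almost fully, but within a region the NanogBiD height was higher at 70.9% of regions, equal at 5.56% and lower at 23.5%, against 58.6%, 6.76% and 34.7% of all shared regions. The median log2 ratio of heights, NanogBiD over NanogWT, was 0.38 (quartiles 0 and 0.77; 95% interval of the median 0.35 to 0.39, counting regions only). Over all shared NANOG regions it was 0.15. A height at least 1.5-fold higher in NanogBiD was found at 37.4% of the 6165 regions, against 21.9% of all shared regions, and one at least 1.5-fold lower at 5.19%, against 8.46%. Heights were not scaled to depth, so the differences from the other shared regions are more readily read than the ratio itself. BRG1 in NanogBiD had heights from 6 to 48, with a median of 11 and quartiles of 9 and 13. Regions were 342 to 6314 bp wide, with a median of 1034 bp.

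For comparison, shared NANOG regions were taken in 3 other states. H3K27ac-gaining regions (n = 4520) had BRG1 in NanogBiD only and H3K27ac in NanogBiD only, H3K27ac-keeping regions (n = 2968) had BRG1 in NanogBiD only and H3K27ac in both arms, and BRG1-free regions (n = 4849) had neither BRG1 nor H3K27ac in either arm. With respect to FLAG, the 6165 regions lay between the BRG1-free and the H3K27ac-gaining regions. Median NanogBiD FLAG heights were 12 at BRG1-free, 17 at the 6165, 19 at H3K27ac-keeping and 22 at H3K27ac-gaining regions, with NanogWT medians of 11, 13, 16 and 14. The median log2 ratio was 0 at BRG1-free regions, 0.21 at H3K27ac-keeping regions and 0.58 at H3K27ac-gaining regions, where 50.2% were at least 1.5-fold higher. The ratio at the 6165 regions was above that of BRG1-free regions and below that of H3K27ac-gaining regions on each of 20 chromosomes and under each of 7 other ways of forming the regions. The BRG1 median was 11, against 14 at H3K27ac-gaining and 13 at H3K27ac-keeping regions. All of these values come from targets used to define the groups and are descriptions.

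**Figure D1:**
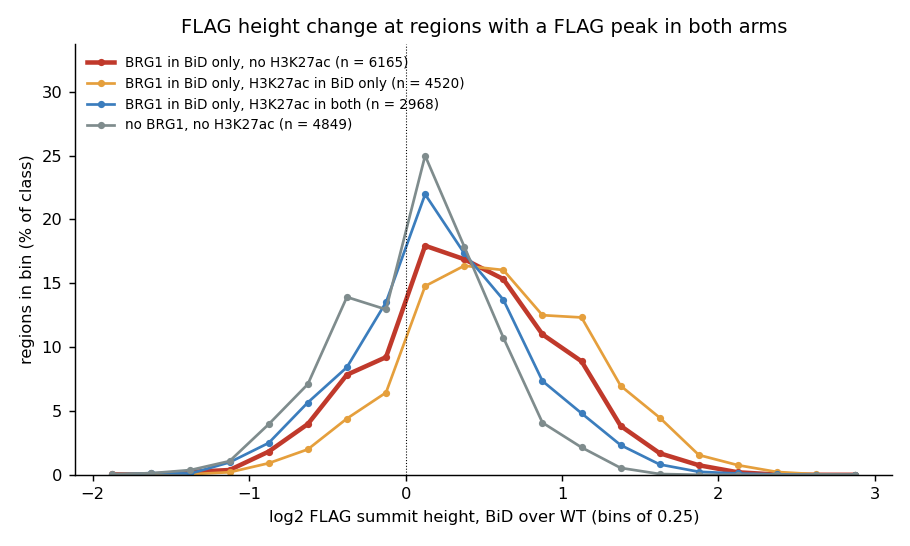
Distribution of the log2 ratio of FLAG summit heights, NanogBiD (BiD) over NanogWT (WT), in bins of 0.25, as the percentage of each class of shared NANOG region; regions with equal heights fall in the bin that starts at 0. The curve of the 6165 regions (red, median 0.38) lies between the BRG1-free regions (grey, median 0) and the H3K27ac-gaining regions (orange, median 0.58).

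FLAG and BRG1 heights were related within NanogBiD, less closely than in the other classes. Spearman's rho between the NanogBiD FLAG height and the NanogBiD BRG1 height was 0.60 over the 6165 regions, ranging from 0.597 to 0.605 as each chromosome was left out, whereas the NanogWT FLAG height gave 0.249 and the FLAG log2 ratio 0.283. The rho between the NanogBiD heights was 0.775 at H3K27ac-gaining regions, 0.749 at H3K27ac-keeping regions and 0.776 over the 36296 shared regions with a NanogBiD BRG1 peak. The points share 1 arm, its libraries' depths and local properties of the DNA, so these are descriptions. Heights also spread less at the 6165 regions. BRG1 quartiles were 9 and 13, against 11 and 18 at H3K27ac-gaining and 10 and 17 at H3K27ac-keeping regions. NanogBiD FLAG quartiles were 13 and 21, against 17 and 29 and 14 and 25. The part of this spread in the lower rho was not tested. The BRG1 summit lay within 100 bp of the NanogBiD FLAG summit at 64.8% of the 6165 regions, with a median distance of 63 bp, against 66.2% of H3K27ac-gaining and 57.0% of H3K27ac-keeping regions. The FLAG summits of the 2 arms lay within 100 bp of each other at 61.5%, with a median of 69 bp, close to the 58.3% and 76 bp of all shared regions.

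The absence of BRG1 in NanogWT alone was far more common than its absence in NanogBiD alone. Of the 12361 shared regions with no H3K27ac, BRG1 was called in NanogBiD only at 49.9%, in neither arm at 39.2%, in both at 8.30% and in NanogWT only at 2.60%, or 321 regions. When every list was limited to its 20000 highest-scoring peaks, so that both arms had lists of 1 size, 1406 regions had BRG1 in NanogBiD only and 112 in NanogWT only. The ratio of these counts was 12.6, against 19.2 with the full lists. The rule used these same kinds of peak calls, so the counts are descriptions. Among the 14212 shared regions with BRG1 in NanogBiD only, 43.4% had no H3K27ac in either arm, 31.8% had it in NanogBiD only, 20.9% in both and 3.93% in NanogWT only. At the 6165 regions the nearest H3K27ac peak was a median of 27.5 kb away in NanogWT and 20.001 kb in NanogBiD. It lay within 1 kb of 2.58% and 3.31% of them, and the nearest NanogWT BRG1 peak lay within 1 kb of 1.85%, so few of these regions adjoined a peak that would have placed them elsewhere.

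Many regions nevertheless lay close to a calling threshold. The score of a peak, −10 times the log10 of its p-value, was at least 50 in every list. The NanogBiD BRG1 score was under 60 at 1092 of the 6165 regions (17.7%), the NanogWT FLAG score at 848 (13.8%) and the NanogBiD FLAG score at 238 (3.86%). Just inside the threshold, a region with a BRG1 score of 50.01 had a BRG1 height of 8 and FLAG heights of 9 and 8. Just outside, a region with a NanogWT BRG1 score of 50.02 was left out, with BRG1 heights of 7 and 11 and FLAG heights of 15 and 24. Another was left out for an H3K27ac score of 50.01 in NanogBiD at height 18, beside FLAG heights of 24 and 51 and a BRG1 height of 30. Among regions with BRG1 in NanogBiD only that did overlap H3K27ac, 1033 of 8047 (12.8%) had no H3K27ac score of 60 or more.

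H3K4me1, the mark that took no part in the choice, was present at a minority of the 6165 regions in each arm and was called about as often in one arm as in the other. It was called at 37.8% in NanogWT (2330 regions; Wilson 95% interval 36.6 to 39.0) and at 37.7% in NanogBiD (2322 regions; 36.5 to 38.9), whereas 68.2% and 64.3% of all shared NANOG regions carried it. Such intervals cover counting error only, and regions are not replicates of a condition. H3K4me1 was in both arms at 23.0% (background 54.9%), in NanogBiD only at 14.7% (904 regions; background 9.41%), in NanogWT only at 14.8% (912 regions; background 13.4%) and in neither at 47.5% (2931 regions; background 22.4%). About as many regions thus had a called peak in 1 arm alone as in the other alone, and without replicates the number of such calls that would differ between repeats of 1 arm is unknown. The NanogBiD-only share minus the NanogWT-only share was −0.13 percentage points (95% interval −1.48 to 1.23), against −3.97 over all shared regions. The sign of this difference depended on the lists: it was 7.97 points when each list was held to its 20000 best-scoring peaks and 6.11 with summit windows in place of peaks, and −4.19 and −7.47 when a score of at least 100 or a height of at least 15 tags was required.

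The position of the 6165 regions relative to the other classes was steadier. H3K27ac-gaining regions carried H3K4me1 at 53.8% in NanogWT and 61.9% in NanogBiD, which put the 6165 regions 15.97 (14.07 to 17.85) and 24.2 (22.3 to 26.1) points lower, on all 20 chromosomes and under all 7 alternatives. BRG1-free regions carried it at 37.5% in NanogWT and 28.5% in NanogBiD. The 6165 regions thus differed from them by 0.28 points (−1.54 to 2.10) in NanogWT and by 9.18 points (7.42 to 10.9) in NanogBiD. The small NanogWT difference was one between classes that differ in FLAG height, and at matched FLAG height it was larger. H3K4me1 was assigned by any overlap, and the classes also differ in width. Median widths were 851 bp at BRG1-free, 1034 bp at the 6165, 1225 bp at H3K27ac-gaining and 1336.5 bp at H3K27ac-keeping regions. The part of width in these shares was not tested. The NanogBiD share was higher than at BRG1-free regions on 20 of 20 chromosomes and in 7 of 7 alternatives, and the NanogWT share on 11 and in 4. The NanogBiD-only minus NanogWT-only difference was −9.03 points (−10.5 to −7.55) at BRG1-free regions, −5.12 at H3K27ac-keeping regions and 8.12 (6.50 to 9.74) at H3K27ac-gaining regions. The signs of these differences also turned with the lists. With the 20000 best-scoring peaks it was 1.95 points at BRG1-free and 3.04 at H3K27ac-keeping regions, with summit windows 3.29 at H3K27ac-keeping regions, and at H3K27ac-gaining regions −1.51 with a score of at least 100 and −4.32 with a height of at least 15 tags. H3K4me1 present in NanogBiD only was 4.89 points (3.67 to 6.10) more frequent at the 6165 than at BRG1-free regions, and 5.23 points (3.77 to 6.69) less frequent than at H3K27ac-gaining regions.

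**Figure D2:**
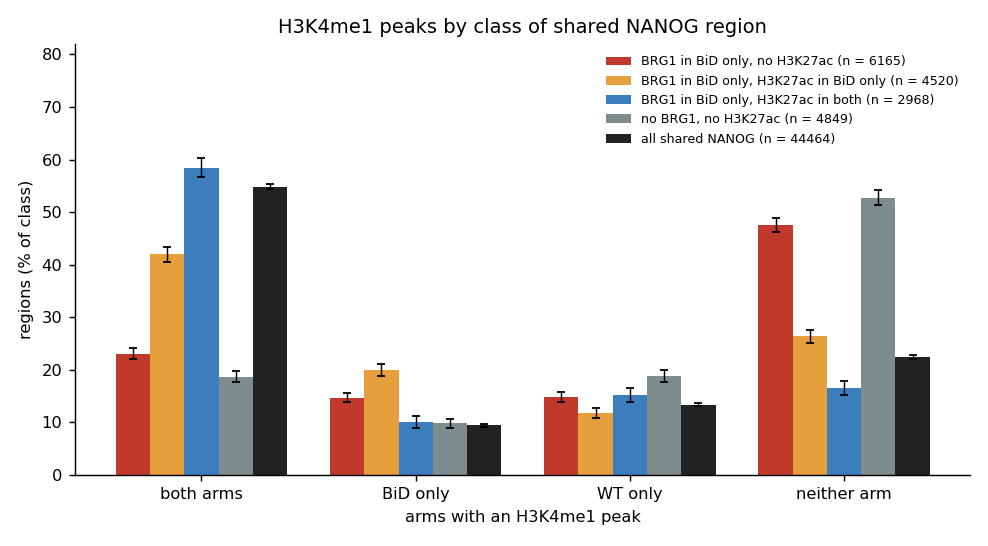
Percentage of the regions of each class with an H3K4me1 peak in both arms, in NanogBiD (BiD) only, in NanogWT (WT) only or in neither; bars are shares and whiskers Wilson 95% intervals, which cover counting error only. Neither arm is the most frequent state of the 6165 regions (red, 47.5%), and their shares for 1 arm alone are near equal (14.7% and 14.8%).

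H3K4me1 in NanogWT, and not in NanogBiD, varied with the change in FLAG height. Among the 320 regions where FLAG was at least 1.5-fold lower in NanogBiD, H3K4me1 was called at 52.5% in NanogWT and 38.4% in NanogBiD. Among the 2070 regions where FLAG was higher by less than 1.5-fold, the shares were 39.6% and 37.2%. Among the 947 regions where FLAG was at least 2-fold higher, they were 24.6% and 37.6%. The NanogBiD share thus stayed between 37.2% and 38.4% over 6 classes of FLAG change, while the NanogWT share fell by more than the width of its intervals from the first class to the last. Regions with H3K4me1 in NanogBiD only made up 9.69% of the first class and 21.6% of the last, and regions with it in NanogWT only 23.8% and 8.66%. BRG1-free regions showed a similar fall in NanogWT, from 44.7% to 24.1%, and a NanogBiD share between 27.8% and 28.8%; their last class had 133 regions. In all 6 classes of FLAG change the 6165 regions had the higher share in NanogWT as well as in NanogBiD, from 24.6% against 24.1% in the last class to 52.5% against 44.7% in the first. The same order held at matched NanogBiD FLAG heights: H3K4me1 was called in NanogBiD at 38.8%, 35.5%, 37.4% and 39.7% of the 6165 regions with heights of up to 12, 13 to 16, 17 to 21 and 22 or more tags, and at 28.5%, 30.2%, 27.1% and 16.99% of BRG1-free regions, the last class of which had 153 regions. In NanogWT it was called at 46.4%, 41.01%, 36.2% and 28.96% of the 6165 regions in the same classes, and at 40.4%, 36.6%, 27.3% and 24.2% of BRG1-free regions, with Wilson intervals that did not overlap in the first and the third. At matched FLAG height the higher share at the 6165 regions was thus seen in both arms, with width left unmatched.

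**Figure D3:**
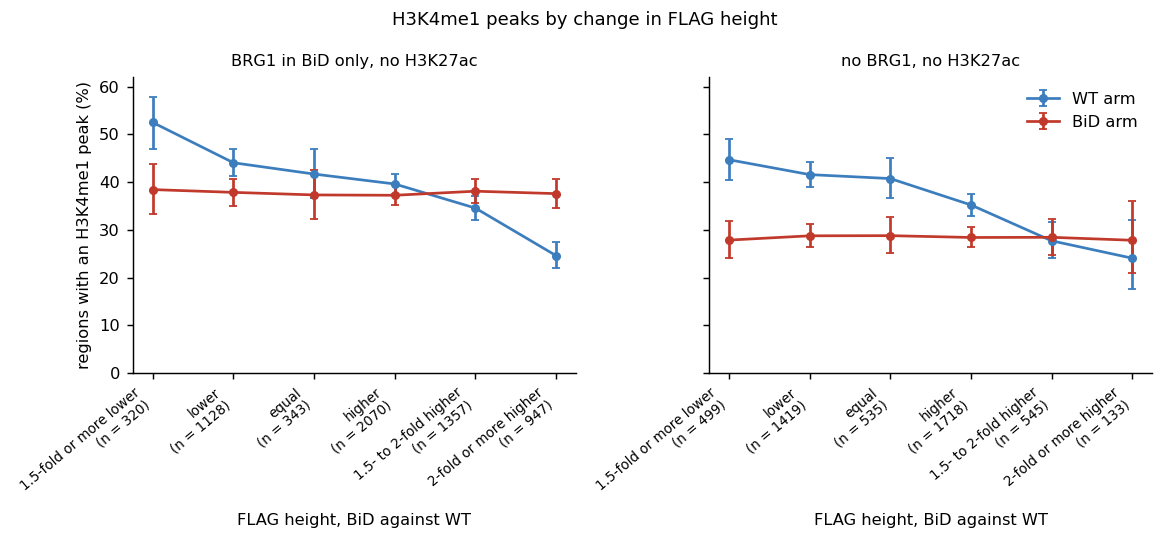
Percentage of regions with an H3K4me1 peak in NanogWT (WT, blue) and NanogBiD (BiD, red) by the ratio of FLAG summit heights, for the 6165 regions (left) and BRG1-free regions (right); points are shares, whiskers Wilson 95% intervals that cover counting error only, and n is the number of regions in each class. At the 6165 regions the NanogWT share runs from 52.5% down to 24.6%, and the NanogBiD share stays between 37.2% and 38.4%.

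Where H3K4me1 was called in both arms (1418 regions), its height changed little, with a median log2 ratio of NanogBiD over NanogWT of −0.13, against −0.18 over all shared regions. Across these regions the H3K4me1 ratio and the FLAG ratio had a Spearman's rho of 0.125, a weak relation that ranged from 0.113 to 0.141 as each chromosome was left out. The 904 regions with H3K4me1 in NanogBiD only had median FLAG heights of 12 and 18 and a median log2 ratio of 0.53, and FLAG was at least 1.5-fold higher at 47.7% of them. The 912 with H3K4me1 in NanogWT only had medians of 13 and 16 and a ratio of 0.26, with 28.5% at least 1.5-fold higher. The 2931 with no H3K4me1 had medians of 12 and 17 and a ratio of 0.42. BRG1 heights hardly separated these groups, with medians of 10 or 11 in each. On the X chromosome H3K4me1 was called at 8.0% of the 150 regions in NanogWT and 6.0% in NanogBiD, and at 36.1% and 33.6% of all shared regions there, so the low level on X was not a property of these regions alone.

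Individual regions show both directions. Of the 3 regions with H3K4me1 in NanogBiD only and the highest NanogBiD H3K4me1 scores, 2 had a higher FLAG height in NanogBiD: the Tenm2 region printed above, and chr11:43074941-43076367, 40.01 kb from Gm9972, with FLAG heights of 15 and 33, a BRG1 height of 16 and an H3K4me1 height of 12. The other, chr15:31869568-31870871, an intergenic site 268 kb from Fam173b, had FLAG heights of 19 and 13, a BRG1 height of 10 and an H3K4me1 height of 11. Of the 3 strongest with H3K4me1 in NanogWT only, chr15:58554853-58555902, in an intron of Fer1l6, had FLAG heights of 10 and 14 and an H3K4me1 height of 16. At chr11:21973389-21974149, 27.9 kb from Otx1, a homeobox gene of the forebrain, the values were 7, 11 and 17. At chr9:86090711-86091818, 248 kb from Tpbg, they were 9, 10 and 15. FLAG was not lower in NanogBiD at any of these 3.

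The regions were mostly distal. Only 11.3% (694 regions; 10.5 to 12.1) overlapped a window of 2 kb either side of an annotated start site, against 32.5% of all shared NANOG regions. The share was 13.5% at H3K27ac-gaining and 23.3% at H3K27ac-keeping regions, 2.28 (1.02 to 3.56) and 12.1 (10.4 to 13.8) points above the 6165 regions, and 11.4% at BRG1-free regions, 0.15 points (−1.04 to 1.348) above them. The summit lay in an intron at 51.5%, in an exon at 3.60% and between genes at 44.9%, against 46.4%, 12.98% and 40.6% of all shared regions. The intervals of the difference in the intron share from each of the other 3 classes include 0. The median distance to the nearest start site was 17.3 kb, with 22.1% more than 50 kb away, which was 7.401 points (5.73 to 9.02) more than at H3K27ac-keeping regions, 3.92 (2.38 to 5.44) more than at H3K27ac-gaining regions and 0.92 (−0.63 to 2.47) more than at BRG1-free regions. The DNA was poor in GC and CpG: the median GC content over 250 bases either side of the summit was 40.7%, against 45.3% over all shared and 41.9% over BRG1-free regions. An observed-to-expected CpG ratio over 0.6, the usual cut for CpG islands, was found at 1.05%, against 18.1% and 1.01%. Repeat-masked bases made up most of the summit window at 8.19% of regions, against 9.86% of BRG1-free and 6.19% of H3K27ac-gaining regions. By chromosome, the regions made up from 10.9% of shared NANOG regions on chromosome 11 to 17.5% on X.

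**Figure D4:**
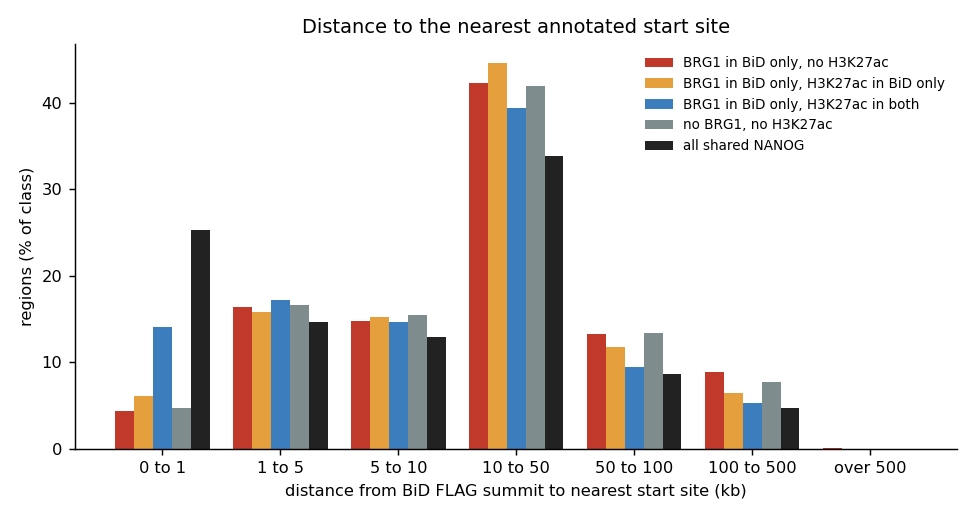
Distance from the NanogBiD FLAG summit to the nearest annotated transcription start site, in kb, as the percentage of each class of shared NANOG region in each bin. The 6165 regions (red) have 4.41% of their summits within 1 kb of a start site, and their most frequent bin is 10 to 50 kb.

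Sequence at the summits was searched next, since the rule used no sequence. The windows are centred on NanogBiD FLAG summits, which the rule required, so a difference from windows 1 kb away is not independent of the choice. All classes were centred in the same way. The AP-1 word TGACTCA, read on either strand, is bound by FOS and JUN factors, which hold enhancers open in fibroblasts. It occurred within 50 bp of the NanogBiD FLAG summit at 9.05% of the 6165 regions (558; 8.36 to 9.79), and at 1.74% of windows of the same size 1 kb downstream. All shared regions had 7.70%. The 6165 regions exceeded BRG1-free regions (6.50%) by 2.55 points (1.55 to 3.55), H3K27ac-gaining regions (7.30%) by 1.75 (0.70 to 2.79) and H3K27ac-keeping regions (7.18%) by 1.87 (0.67 to 3.02). AP-1 remained more frequent than at BRG1-free and H3K27ac-keeping regions under 7 of 7 other ways of forming the regions. With the 20000 best-scoring peaks it was 7.25%, against 8.13% at H3K27ac-gaining regions, so that order turned. The OCT octamer ATGCAAAT occurred at 2.79% (172; 2.41 to 3.23), against 0.83% of windows 1 kb away and 2.25% of all shared regions. Here the 6165 regions were 0.97 points (0.29 to 1.68) below H3K27ac-gaining regions (3.76%) and differed by 0.48 points (−0.12 to 1.07) from BRG1-free regions (2.31%); with the 20000 best-scoring peaks the order against H3K27ac-gaining regions turned, at 3.91% and 3.71%. The homeodomain word TAATGG, the core of the sequence that NANOG prefers, occurred at 8.92%, against 4.28% 1 kb away and 6.15% of all shared regions. That was 1.99 points (0.84 to 3.15) below H3K27ac-gaining regions and 1.37 (0.34 to 2.397) above BRG1-free regions, and both orders held under 7 of 7 alternatives. TAATTA, a core shared by many homeodomain proteins, occurred at 5.63% of the 6165 regions, against 3.89% 1 kb away and 3.65% of all shared regions. That was 1.401 points (0.59 to 2.20) more than at BRG1-free regions, whereas the differences from H3K27ac-gaining (−0.19 points, −1.10 to 0.69) and H3K27ac-keeping regions (0.61, −0.40 to 1.55) had intervals that include 0.

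Of the other words searched, the KLF, SP and ETS words were several times less frequent than over all shared regions, and their differences from BRG1-free regions had intervals that include 0. A SOX word, which is ACAA followed by T or A, then G or A, then G, was at 10.4% of summits and 7.58% of windows 1 kb away, with intervals of the difference from each of the other 3 classes that include 0. The RUNX word TGTGGTT was at 4.62%, against 3.38% of all shared regions and 4.54% of BRG1-free regions, and the TEAD word GGAATG at 7.56%, against 7.01% of all shared regions, 8.29% of BRG1-free regions and 5.81% of windows 1 kb away. The KLF and SP words GGGCGGG and GGGTGGG were at 1.64%, against 7.39% of all shared and 1.69% of BRG1-free regions, and the ETS word CCGGAAG at 0.21%, against 1.48% and 0.23%. KLF, SP and ETS words are typical of CpG-rich promoters. Regions with a homeodomain or octamer word had the larger median differences in FLAG. The median log2 ratio of heights was 0.54 with TAATGG and 0.36 without, 0.55 and 0.36 for TAATTA, 0.54 and 0.38 for the octamer, and 0.47 and 0.37 for AP-1. It was 0.32 with the TEAD word and 0.38 without, and 0.42 and 0.38 for the RUNX word. Quartiles overlapped widely, at 0.15 and 1 with TAATGG and 0 and 0.76 without. The windows were centred on the NanogBiD FLAG summit, so word and height are not independent, and the other classes were not compared. A match is a description of letters, not evidence of binding.

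**Figure D5:**
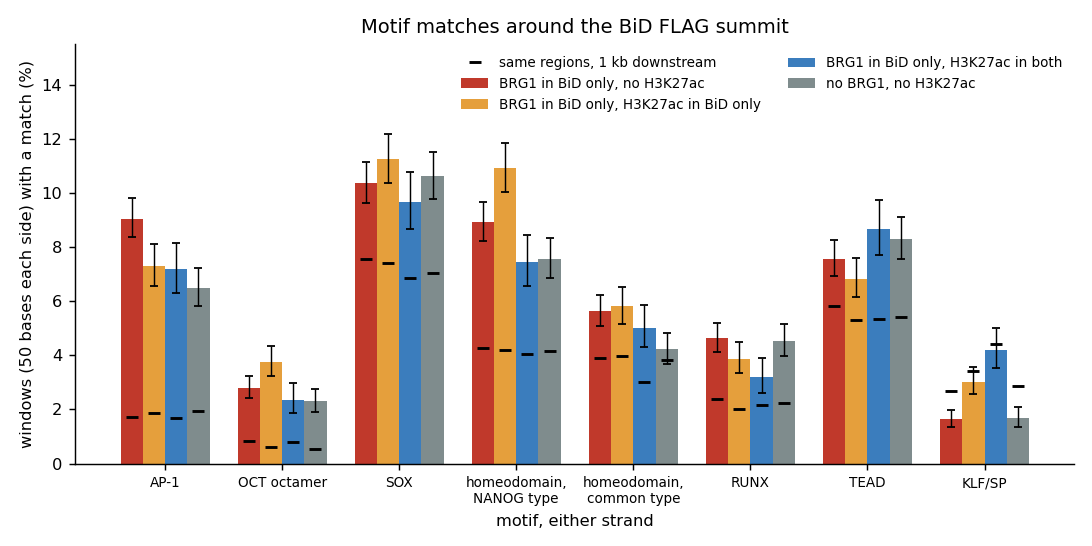
Percentage of windows of 50 bases either side of the NanogBiD (BiD) FLAG summit with a match to each motif on either strand, by class of shared NANOG region; whiskers are Wilson 95% intervals that cover counting error only, and black dashes give windows of the same regions 1 kb downstream. AP-1 stands at 9.05% in the 6165 regions (red) against 1.74% downstream.

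The composite OCT-SOX element, a SOX site directly before the OCT site, was rare in every class. It was held by 10 of the 6165 regions (0.16%), against 0.13% of all shared regions, and by none of the windows 1 kb away. The palindromic OCT element was found at none, against 10 of all 44459 shared regions searched (0.022%). The 4 highest-ranked regions with a composite match are shown because they hold the site that OCT4 shares with SOX2, with the composite match and any octamer in capitals; the composite overlaps the octamer where both are present. Each run is the plus strand of mm10, with 50 bases either side of the NanogBiD FLAG summit.
Col4a6 intron, chrX:141244747-141244847: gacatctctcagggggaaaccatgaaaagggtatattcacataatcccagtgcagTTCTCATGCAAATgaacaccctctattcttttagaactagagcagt
Kynu side, chr2:43360076-43360176: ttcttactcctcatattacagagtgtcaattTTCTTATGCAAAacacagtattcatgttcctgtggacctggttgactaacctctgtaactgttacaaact
Bcas3 intron, chr11:85509289-85509389: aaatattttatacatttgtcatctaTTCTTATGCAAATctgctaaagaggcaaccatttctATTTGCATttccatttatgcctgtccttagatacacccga
Diaph2 side, chrX:130945381-130945481: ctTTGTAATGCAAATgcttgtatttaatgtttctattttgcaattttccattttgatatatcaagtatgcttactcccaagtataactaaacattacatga

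The FLAG heights of the arms were close at 3 of the 4. At chrX:141244336-141245419, in an intron of the type IV collagen gene Col4a6, the FLAG heights were 24 and 28 and the BRG1 height was 20. At chr2:43359169-43361296, 195 kb from Kynu, they were 18, 21 and 14, with H3K4me1 in NanogWT only. At chr11:85508894-85509696, in an intron of Bcas3 and 0.288 kb from an annotated start site of it, they were 8, 20 and 11, with H3K4me1 in both arms. The window there holds a second octamer on the opposite strand. At chrX:130944333-130946293, 973 kb from the start of the formin gene Diaph2, they were 12, 13 and 9.

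The AP-1 matches with the highest scores outside exons are shown for the fibroblast-type element they carry, again as the plus strand of mm10 with AP-1 and homeodomain words in capitals.
Basp1 side, chr15:24419935-24420035: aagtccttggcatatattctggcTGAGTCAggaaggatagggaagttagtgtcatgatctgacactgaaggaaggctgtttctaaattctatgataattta
Rnd3 side, chr2:50739633-50739733: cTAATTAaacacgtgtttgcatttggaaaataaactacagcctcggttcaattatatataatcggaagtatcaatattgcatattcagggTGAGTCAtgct
Sdc2 side, chr15:32882362-32882462: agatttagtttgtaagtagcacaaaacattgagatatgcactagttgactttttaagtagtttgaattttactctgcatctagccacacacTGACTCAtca

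The ranking by NanogBiD scores again favours a higher FLAG height in NanogBiD. At chr15:24419610-24420674 the FLAG height was 9 and 23, with a BRG1 height of 18 and H3K4me1 in NanogBiD only. At chr2:50738283-50740063, 409 kb from Rnd3, it was 19 and 37, with a BRG1 height of 30 and a TAATTA word in the same window. At chr15:32881277-32882889, 38.3 kb from the syndecan gene Sdc2, it was 16 and 31, with a BRG1 height of 21. No H3K4me1 peak was called in either arm at the last 2. At the 558 regions with AP-1, H3K4me1 was called at 37.6% in NanogWT and 37.5% in NanogBiD, close to the 37.8% and 37.7% of regions without it.

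Regions near genes were spread over many loci. A region lay in the body of 1976 of 21755 protein-coding genes, and 61 genes held 5 or more. Prkg1, a cGMP-dependent kinase gene 1201 kb long, held the most, with 15 regions, followed by the phosphodiesterase gene Pde4d with 14. Lrrc4c, Dlg2 and Fgfr2 held 10 each, Zfp407, Ctnna2 and Macrod2 held 9 each, and Pcdh15 held 8. All of these have long bodies in the annotation used, from 462 kb for Zfp407 to 2961 kb for Fgfr2, and a longer body has more room for regions. Whether an annotated body also spans other genes was not examined. At Prkg1 the FLAG height was higher in NanogBiD at 12 of 15 regions, with a median log2 ratio of 0.81, and H3K4me1 was called in NanogBiD at 5 and in NanogWT at 8. At Pde4d the FLAG height was higher at 10 of 14, and H3K4me1 was called at 6 in NanogBiD and 9 in NanogWT. At Dlg2, a synaptic scaffold gene, FLAG was higher at 5 of 10, and H3K4me1 was called at 5 in NanogBiD and 2 in NanogWT.

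Within the body or 20 kb either side, 15.1% of all protein-coding genes (3279) had a region, with a median gene length of 17.4 kb. Among 35 pluripotency genes, 7 had one, among them Tdgf1, Nr5a2, Tet1, Klf4, Zfp42 and Tet2, at a median length of 13.7 kb. At Tet1, which encodes a dioxygenase that oxidises 5-methylcytosine, an intronic region at chr10:62896405-62897463 had FLAG heights of 10 and 36 and a BRG1 height of 18, with no H3K4me1. At Tdgf1, which encodes the Nodal co-receptor CRIPTO, an intronic region at chr9:110943959-110946011 had FLAG heights of 19 and 33, a BRG1 height of 24 and H3K4me1 in NanogWT only. At Nr5a2, a nuclear receptor gene, the FLAG heights were 17 and 17 and the BRG1 height was 11. FLAG was thus at least 1.5-fold higher in NanogBiD at Tet1 and Tdgf1, and none of these 3 genes had H3K4me1 in NanogBiD at the region described. Klf4 went the other way, with FLAG heights of 31 and 20, a BRG1 height of 17 and H3K4me1 in NanogWT only. At Zfp42 the FLAG heights were 14 and 13 and at Tet2 they were 12 and 17.

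Genes of the fibroblast state also had such regions. Among 30 mesenchymal transcription factors, 13 had a region, at a median length of 60.6 kb. The best-scoring were in Nfia (FLAG 19 and 22, BRG1 21), Ebf1 (22 and 18, BRG1 14), Nfib (11 and 22, BRG1 20) and Tcf4 (12 and 22, BRG1 15), all intronic. Among 25 AP-1, TEAD and YAP genes, 9 had one, at a median length of 16.7 kb, with the best in Atf3, Yap1, Tead1 and Bach2. At Yap1, the Hippo pathway co-activator gene, the FLAG heights were 11 and 20 and the BRG1 height was 12. Among 29 matrix and adhesion genes, 12 had one, at a median length of 106 kb. Fbn2, a fibrillin gene, scored highest (FLAG 23 and 30, BRG1 22, H3K4me1 in both arms), followed by Cdh11, Cdh2 and Fn1. Of 22 epithelial genes, Grhl3 and Grhl2 had one, at a median length of 14.7 kb.

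Signalling and neural genes completed the lists. Of 30 TGF-beta, BMP and Nodal genes, 11 had a region, at a median length of 61.4 kb, with the highest scores at Id4, Smad2, Bmp2 and Acvr1. At Bmp2, the ligand gene, the FLAG heights were 9 and 14 and the BRG1 height was 18. Of 26 neural and axon guidance genes, 20 had one, at a median length of 366 kb, the longest of the lists. Robo2, a SLIT receptor gene, had an intronic region with FLAG heights of 11 and 36, a BRG1 height of 19 and H3K4me1 in NanogBiD only. Dcc, the netrin receptor gene, had 17 and 34, BRG1 24 and H3K4me1 in NanogBiD only, Sema3d had 12 and 26 with BRG1 16, and Cntn4 had 10 and 27 with BRG1 16. Of 28 BAF subunit genes, 5 had one, with the highest scores at Smarca2 (FLAG 13 and 21, BRG1 10), Dpf3, Pbrm1 and Bcl7b. The part of gene length in these counts was not tested, and nearness does not show which gene a region acts on.

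Promoters of protein-coding genes were reached by 390 regions. The 8 with the highest scores were at 4921524L21Rik, Ube2d2b, Oc90, Krtap4-7, Mia3, Fam133b, Arap2 and Rapgef5. At Arap2, a GTPase-activating protein gene, the FLAG heights were 10 and 33 and the BRG1 height was 21. At Oc90, an otoconial protein gene, with a summit 227 bp from the start site, the values were 17, 35 and 17. At Ube2d2b they were 8, 37 and 22. At Mia3, a cargo receptor gene of collagen export, they were 18, 35 and 27, with H3K4me1 in both arms at heights 25 and 17. At Krtap4-7, a keratin-associated protein gene, they were 19, 24 and 14, with H3K4me1 in NanogWT only. The remaining 6 of the 8 had no H3K4me1 peak in either arm. They were ranked by NanogBiD scores, which favours a higher FLAG height in NanogBiD, and all 8 had one.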

How the data were processed

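The authors ran CUT&Tag on MEFs at day 5 and deposited 1 peak list per target and arm (8 lists, 4 targets, 2 arms). Per the labels and methods, reads were trimmed with Trim Galore 0.6.4, mapped to mm10 with Bowtie2 2.4.5 and filtered with SAMtools 1.16.1, replicates were merged, and peaks were called with MACS 1.4.2, with no control named. The peak score the authors deposited is −10 times the log10 of MACS's p-value, and the deposited summit signal is a tag pileup that is not scaled to depth, which is unknown. The study states a minimum number of repeats for its experiments in general; how many replicates each list merges, and whether they were separate cultures, is not given in the sources used here. Because they were merged, no comparison has a test.

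Here peaks of the FLAG and BRG1 lists were merged where they overlapped or touched, and marks were assigned by any overlap. Heights are those of the highest peak of a list in a region, and ratios are log2. Shares have Wilson 95% intervals, differences of shares Newcombe intervals, and the median log2 ratio an order-statistic interval. All cover counting error only. Genes are from GENCODE M21, and bases from the NCBI GRCm38.p6 assembly (mm10 coordinates; 0 peaks lay beyond a chromosome end). Motifs were searched within 50 bp of the NanogBiD FLAG summit on both strands. Named regions are the 6 highest by the lower of the NanogBiD FLAG and BRG1 scores, the 3 strongest each with H3K4me1 in 1 arm only, up to 4 each with an OCT-SOX or AP-1 match, and 8 at coding promoters; named genes are the 10 with most regions and, in each gene list, the 4 with the best-scoring region; some items that meet these rules are not reported here. Members and lists were chosen with earlier results of these data known. The code was tested on simulated data. Python 3.11.15, pandas 2.3.3, SciPy 1.17.1 and pysam 0.24.0 were used. Alternatives changed the score, height, list size, merging gap, peak extent, exclusion distances, chromosomes, promoter size, motif window and measure of height.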

Additional observations from a re-analysis of the deposited data

How the results depend on the processing

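No paired analysis was possible because each target and arm has 1 list made from merged replicates; for the same reason no replicate could be left out and no result has a test. When each list was held to its 20000 best-scoring peaks, the regions numbered 1406 in place of 6165, the H3K4me1 shares were 15.4% in NanogWT and 23.4% in NanogBiD (difference 7.97 points), the FLAG log2 ratio was 0.33, and promoters, AP-1 and the octamer stood at 9.74%, 7.25% and 3.91%. With a score of at least 100, there were 4057 regions, with H3K4me1 at 22.3% and 18.1% (−4.19 points) and a FLAG ratio of 0.32. With a height of at least 15 tags, there were 2356 regions, with H3K4me1 at 30.3% and 22.8% (−7.47 points), a FLAG ratio of 0.30, and promoters, AP-1 and the octamer at 13.4%, 10.4% and 3.57%. With windows of 100 bp either side of each summit in place of peaks, H3K4me1 stood at 25.2% and 31.3% (6.11 points), the FLAG ratio at 0.35 and promoters at 12.8%. Promoters of 1 kb gave 7.09%, and leaving out regions with H3K27ac within 1 kb gave 10.5%. Motif windows of 25 bp either side gave 4.48% for AP-1 and 1.23% for the octamer, the shorter window having less room for a match, and windows at the BRG1 summit gave 7.43% for AP-1. All other alternatives left these values within their intervals. The cause of the shifts with score, height and list size was not tested. The direction of the H3K4me1 difference between arms therefore depends on the lists. A NanogBiD H3K4me1 share above that of BRG1-free regions and below that of H3K27ac-gaining regions held under all 7 alternatives that changed the regions. The median FLAG ratio was positive under all 7 as well, but the rule used FLAG peaks and heights were not scaled to depth. Over all shared regions the FLAG ratio was also positive, at 0.15, so its sign is only a description. Depth is unknown and limits every statement that a peak was absent.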
